A study of Mus musculus with 18 samples.

Results

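Among the 42403 regions bound by GATA6 while mouse embryonic stem (ES) cells turned towards primitive endoderm (PrE), 4351 held no GATA6 motif. These regions were chosen as the rows of the deposited table of GATA6 binding regions in which the score of the best GATA6 motif is empty, in all clusters of binding dynamics. They made up 10.3% of the table. The study followed ES cells of the KH2 line (C57BL/6 x 129/Sv), grown with LIF on inactivated feeder cells, that carry a cassette from which doxycycline (Dox) induces Gata6. The 18 MNase-seq libraries of the series, 3 per group, come from untreated cells (d0) and from cells given 1 µg/mL Dox for 8, 16, 24, 48 or 96 h, and all groups carry the cassette. The study selected 2 clones of these cells, and the labels do not say which clone a library is from. None of the columns used holds a value of an MNase library, so that nucleosome signal at these regions was not analysed here and the depth behind each class is unknown. The analysis rests on the position of each region and its summit, on the classes that the authors gave each region from ChIP-seq, ATAC-seq and public histone data, and on the genome sequence below it. Regions are the units, and intervals (95%, Wilson for shares and Woolf for odds ratios) cover counting error among regions only. Replicate spread cannot be read from a table of merged calls, so the number of chromosomes that show the pooled direction is given as a check, for the 20 chromosomes with at least 20 such regions.

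GATA6 is a zinc finger transcription factor that recognises the letters GATA with preferred bases on either side, and it drives the PrE fate in the early embryo. Like other GATA factors it is described as a pioneer factor, which can bind its motif on nucleosomal DNA. A peak in a ChIP experiment can also lie where a factor meets a weaker site, or where it is held by other proteins on the DNA, and ChIP on crosslinked chromatin does not separate these. SOX17 is an endoderm transcription factor, and OCT4, SOX2 and ESRRB are transcription factors of the pluripotency network (PTFs).

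The motif scores of the table were log-odds scores of a matrix of 13 positions, which was recovered from the deposited motifs and their sequences. The lowest deposited score was 6.23 and the highest possible score was 15.2. Every region without a motif therefore still has a best match, below that threshold, and its score is called sub-threshold here. To show what such regions look like, the regions with the highest and the lowest sub-threshold score in the summit window, which spans 100 bp to either side of the summit, are printed for each cluster, on the plus strand of mm10, with the best sub-threshold match in capitals.

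Early&Constant, highest, chr2:12410671-12410791: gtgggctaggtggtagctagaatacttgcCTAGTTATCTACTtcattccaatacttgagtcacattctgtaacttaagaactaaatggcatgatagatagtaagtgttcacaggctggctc
Late, highest, chr1:59747208-59747408: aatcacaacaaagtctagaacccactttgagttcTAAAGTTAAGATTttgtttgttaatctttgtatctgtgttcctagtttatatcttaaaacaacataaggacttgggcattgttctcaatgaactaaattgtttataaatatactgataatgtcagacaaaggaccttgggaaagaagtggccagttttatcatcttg
Transient, highest, chr11:115174912-115175112: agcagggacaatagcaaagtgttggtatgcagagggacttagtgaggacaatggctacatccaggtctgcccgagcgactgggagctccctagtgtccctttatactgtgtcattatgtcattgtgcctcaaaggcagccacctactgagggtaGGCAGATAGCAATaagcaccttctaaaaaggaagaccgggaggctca
Early&Constant, lowest, chr1:170843546-170843746: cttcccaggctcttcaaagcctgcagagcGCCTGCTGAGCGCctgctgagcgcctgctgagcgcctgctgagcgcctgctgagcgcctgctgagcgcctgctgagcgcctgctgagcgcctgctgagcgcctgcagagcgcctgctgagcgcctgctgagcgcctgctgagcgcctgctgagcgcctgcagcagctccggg
Late, lowest, chr1:60180341-60180461: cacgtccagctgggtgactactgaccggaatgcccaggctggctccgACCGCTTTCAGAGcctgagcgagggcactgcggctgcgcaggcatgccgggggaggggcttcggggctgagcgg
Transient, lowest, chr1:60566887-60567007: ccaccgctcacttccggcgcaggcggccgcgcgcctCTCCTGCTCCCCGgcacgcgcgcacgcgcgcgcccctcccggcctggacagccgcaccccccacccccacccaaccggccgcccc

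The regions with the highest sub-threshold scores lay just under the threshold. The Early&Constant region, chr2:12410399-12411294, scored 6.21 on the minus strand, 25 bp before the summit. It lay 527 bp from a start of Mindy3, was closed at d0, and was classed with ectopic PTFs and without SOX17. The Late region, chr1:59747213-59747434, scored 6.22, was closed and SOX17-bound, and lay between genes 16092 bp from Bmpr2. The Transient region, chr11:115174832-115175209, also scored 6.22, through the letters GATAGC, and lay in an intron 11671 bp from a start of Slc9a3r1. It was accessible at d0, in the active enhancer state and bound by SOX17.

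The regions with the lowest scores in the window were rich in G and C. The Late region at the promoter of Nbeal1 (summit 198 bp from a transcript start) and the Transient region at the promoter of Raph1 (157 bp) had a GC share of 71.1% and 83.1% in the window, and both were accessible at d0 and in the promoter state. Their best window scores were -4.31 and -4.02, and elsewhere in these regions a match reached 3.77 and 2.70. The Early&Constant region, in an intron and 24125 bp from the nearest protein-coding start, that of Atf6, scored -3.88 in the window, over a tandem array of short repeats with a GC share of 71.1%. Elsewhere in the same region a match reached 5.77, and the region was closed at d0 with PTFs from d0 and SOX17.

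The values on either side of the threshold are given as a description, with no test. Of the regions without a motif, 1983 had a best score within 1 unit under the threshold and 2368 lay further below. Of the regions with a motif, 3112 lay less than 1 unit above. Just under and just above the threshold, 16.5% and 13.1% were accessible at d0, 46.8% and 44.6% belonged to the Late cluster, and 15.2% and 15.0% had a promoter summit. Their median widths were 411 and 438 bp. For 5 regions the table lists no motif, but a match above the threshold lies in the summit window past the edge of the region. The nearest is at chr17:40583964-40584245, a Transient region where a match with a score of 11.3 begins 2 bp past the region end.

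The first comparison was of size, since a wider region offers more places at which a match can start. Regions without a motif had a median width of 379 bp (quartiles 296 and 513), against 547 bp (384 and 808) for regions with a motif. The difference of medians was -168 bp. It was negative on 20 of 20 chromosomes (between -192.5 and -142 bp, exact two-sided sign test over chromosomes, adjusted p = 3.81e-06). Within clusters the median was 531 against 769 bp in Early&Constant, 341 against 425 bp in Late and 402 against 532 bp in Transient regions. The share without a motif fell from 21.9% of the 4241 narrowest regions (172 to 283 bp) to 0.967% of the 4241 widest (1095 to 5381 bp). Each class comparison below is therefore given over all regions and, where it differs, within 10 bins of region width as a Mantel-Haenszel odds ratio. A class compared over all regions and given with 1 value kept its direction and call in those bins. Where no such value is printed, shares inside a single cluster, repeat-marked windows, motifs in fixed windows and regions with none of the scored motifs were not compared within width bins.

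**Figure D1:**
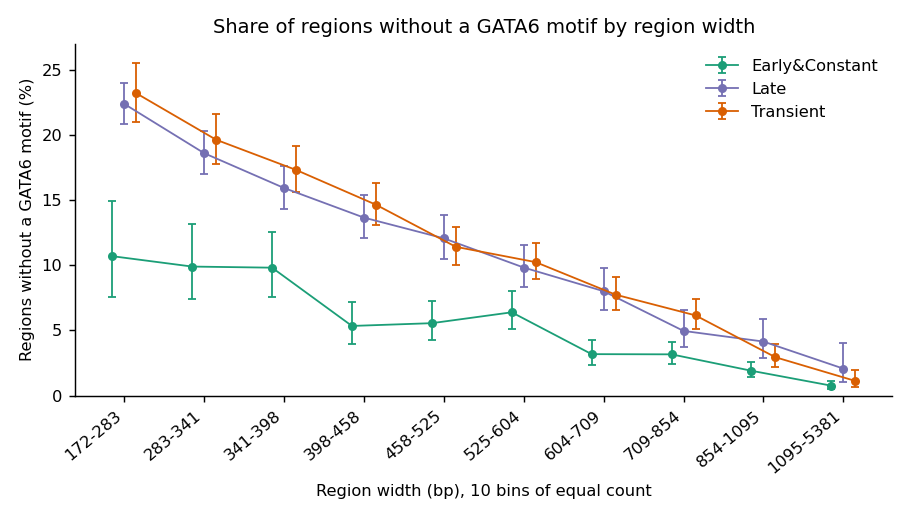
Share of regions without a GATA6 motif (%) in 10 equal-count bins of region width (bp), for Early&Constant, Late and Transient regions, with 95% Wilson intervals. In the narrowest bin the share is 10.7% in Early&Constant, 22.4% in Late and 23.2% in Transient regions, and in the widest bin it is lower in each cluster. It falls from bin to bin in Late and Transient regions. In Early&Constant regions it rises from 5.34% to 6.39% between 398 and 604 bp.

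The authors divided GATA6 regions by k-means into Early&Constant regions, bound early and kept, Late regions, bound late, and Transient regions, bound early and lost. The regions without a motif comprised 440 Early&Constant, 2003 Late and 1908 Transient regions. The motif was lacking in 3.71% (3.38 to 4.06) of the Early&Constant, 14.1% (13.5 to 14.6) of the Late and 11.7% (11.2 to 12.2) of the Transient regions. Against the regions with a motif, the log2 odds ratio was -1.93 for Early&Constant (-2.08 to -1.79), 0.85 for Late (0.76 to 0.94) and 0.36 for Transient (0.27 to 0.45), each in its direction on 20 of 20 chromosomes. Within width bins the values were -1.08 (standard error 0.078), 0.19 (0.0492) and 0.33 (0.0481). The Late share stood above the Transient share over all regions, but their order varied between the width bins. Late stood below Transient in the narrowest bin (22.4% against 23.2%) and above it in the widest (2.07% against 1.12%). The intervals overlapped in both of these bins.

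Chromatin was more often open before Dox where the motif was lacking. Of the regions without a motif, 901 (20.7%, 19.5 to 21.9) were accessible at d0, against 5.92% of those with a motif, a log2 odds ratio of 2.05 (1.93 to 2.18, Fisher's exact test, adjusted p = 1.23e-199, 20 of 20 chromosomes). A further 1644 (37.8%) were moderate, and 1806 (41.5%) were closed, against 63.6% of the others (log2 odds ratio -1.30, -1.39 to -1.21, 20 of 20 chromosomes). Within width bins the accessible value was 2.43 (standard error 0.068). The difference was present in each cluster. Accessible regions made up 15.7% of the Early&Constant, 12.2% of the Late and 30.8% of the Transient regions without a motif, against 4.48%, 2.39% and 10.1% of those with a motif. The log2 odds ratios were 1.99 (1.60 to 2.38), 2.51 (2.25 to 2.76) and 1.99 (1.83 to 2.15). These differed between clusters (Woolf's chi-square test, adjusted p = 0.00353), but within width bins they were 2.60, 2.56 and 2.33, and the test did not pass (adjusted p = 0.29).

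**Figure D2:**
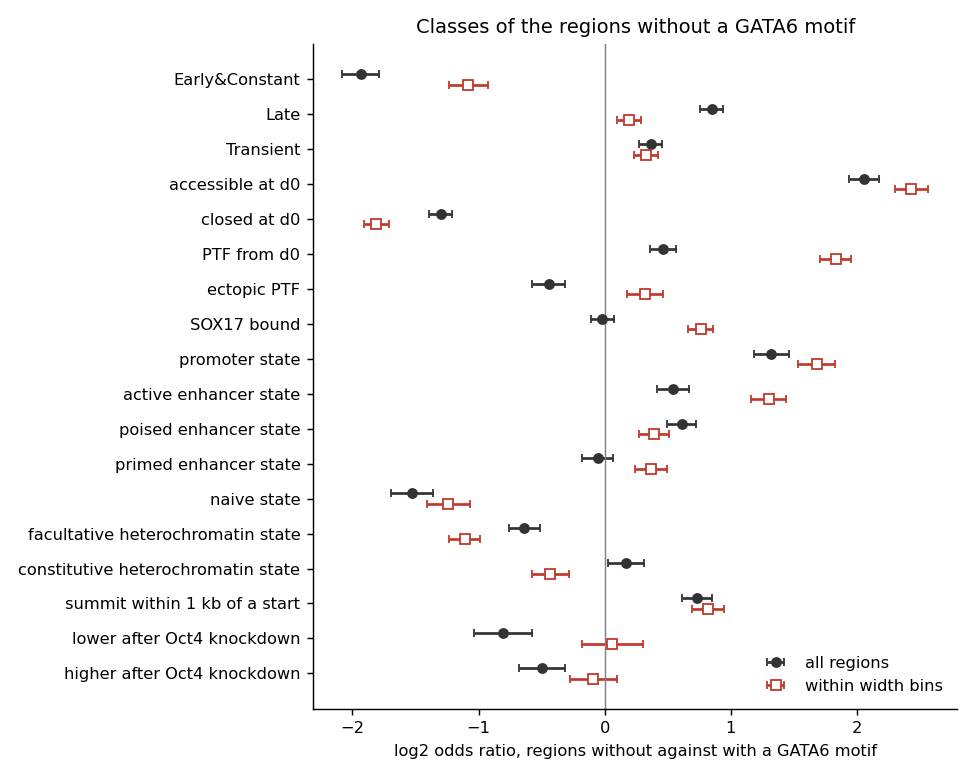
Log2 odds ratio of each class among regions without a GATA6 motif against regions with one, over all regions (filled circles) and within 10 bins of region width (open squares), with 95% intervals. The accessible class lies at 2.05 and 2.43, the Early&Constant cluster at -1.93 and -1.08, while the SOX17-bound class moves from -0.02 to 0.76.

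The histone states, which the authors took from public data of ES cells, showed the same tilt. The promoter state held 605 regions without a motif (13.9%) against 6.08% of those with one (log2 odds ratio 1.32, 1.18 to 1.46, 20 of 20 chromosomes). The active enhancer state held 14.9% against 10.7% (0.54, 0.41 to 0.67, 17 of 20 chromosomes), and 1.30 within width bins. The poised enhancer state held 19.9% against 14.0% (0.61, 0.50 to 0.73), but its value was -0.02 within bins of width and GC share together. Lower shares were found in the naive state (7.61% against 19.2%, -1.53, -1.69 to -1.36) and in facultative heterochromatin (16.2% against 23.1%, -0.64, -0.76 to -0.52), both on 20 of 20 chromosomes. The constitutive heterochromatin state held 11.2% against 10.1% (adjusted p = 0.0288), with a log2 odds ratio of 0.17 that became -0.43 within width bins. The primed enhancer state held 16.4% against 16.9%, a value that did not pass the test over all regions (adjusted p = 0.403) and was 0.37 within width bins (adjusted p = 1.10e-08). In Late regions, where open chromatin is rare, the promoter state held 273 of those without a motif (13.6%) and 3.68% of those with one.

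PTFs were present from d0 at 1128 of the regions without a motif (25.9%) and at 20.3% of those with one, a log2 odds ratio of 0.46 (0.36 to 0.57, adjusted p = 4.81e-17, 17 of 20 chromosomes). Within width bins this rose to 1.83 (standard error 0.0621). By cluster, PTFs from d0 were found at 35.7% of Early&Constant, 4.14% of Late and 46.5% of Transient regions without a motif, against 27.3%, 1.36% and 30.8%. The log2 odds ratios of 0.56, 1.64 and 0.97 differed between clusters (adjusted p = 9.85e-05). Within width bins they were 2.09, 2.14 and 2.06 and did not differ detectably (adjusted p = 0.938).

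Ectopic PTFs, the authors' class for PTF binding gained at new sites during induction, changed direction with region width. They were present at 569 regions without a motif (13.1%) and at 17.0% of the others (log2 odds ratio -0.45, -0.58 to -0.31, 20 of 20 chromosomes). The value was 0.32 within width bins, 0.21 within GATA6 clusters and -0.12, without passing the test, in the interquartile range of widths. Within width bins it was 0.13 in Early&Constant, 1.07 in Late and 0.51 in Transient regions (difference between clusters, adjusted p = 7.34e-06).

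SOX17 was bound at 1922 regions without a motif (44.2%) and at 44.5% of those with one, and this difference did not pass the test (log2 odds ratio -0.02, -0.11 to 0.07, adjusted p = 0.675, 11 of 20 chromosomes). Within width bins the value was 0.76 (standard error 0.0498, adjusted p = 1.18e-52). Within clusters, 78.4% of Early&Constant, 54.9% of Late and 25% of Transient regions without a motif were bound, against 72.4%, 53.1% and 15.0%. The log2 odds ratios of 0.47, 0.10 (adjusted p = 0.152) and 0.92 differed between clusters (adjusted p = 3.07e-12), and also within width bins, where they were 1.55, 0.77 and 1.49 (adjusted p = 1.28e-09).

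The authors' class for the response to Oct4 knockdown rests on siRNA given together with Dox and on GATA6 binding at 48 h only. Over all widths this response was less frequent in regions without a motif, and the difference was not detected within width bins. GATA6 binding was lower after knockdown at 167 regions without a motif (3.84%), where the class holds 6.25% of all regions, and higher at 279 (6.41%), where it holds 8.57%. Against regions with a motif the log2 odds ratios were -0.81 (-1.04 to -0.58) and -0.50 (-0.68 to -0.32), both on 19 of 20 chromosomes. Within width bins they were 0.06 and -0.09 and did not pass the test (adjusted p = 0.601 and 0.379). Among the 2003 Late regions without a motif, 257 had higher binding (12.8%, against 20.2% of Late regions with a motif).

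Width, GC share, cluster, accessibility, PTFs, SOX17 and a promoter summit were then entered together in a logistic regression of lacking a motif, with standard errors clustered by chromosome. The histone states and the knockdown classes were not part of this fit. Each doubling of region width went with a change of -2.17 in the log2 odds (standard error 0.0324), and each 10 points of GC share with 0.48 (0.0521). Because the matrix favours A or T in its core, the term for GC share is tied in part to the rule. Late regions stood at 1.54 (0.0954) and Transient regions at 0.89 (0.0856) against Early&Constant. Accessible regions stood at 2.20 (0.115) and moderate ones at 1.20 (0.0742) against closed ones. PTFs from d0 gave 1.52 (0.108) and ectopic PTFs 0.98 (0.0757) against none, and SOX17 gave 0.84 (0.058). A promoter summit gave -0.06 (0.0744, adjusted p = 0.452). For the other terms named the largest adjusted p was 4.08e-20.

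Promoters were over-represented before that fit. A transcript start lay at most 1 kb from the summit in 787 regions without a motif (18.1%) and in 11.7% of the others (log2 odds ratio 0.73, 0.61 to 0.85, 20 of 20 chromosomes). The share was 20.0% in Late regions without a motif against 10.6% (log2 odds ratio 1.07), 17.0% against 12.8% in Transient (0.49) and 14.1% against 11.6% in Early&Constant regions (0.32, adjusted p = 0.126, and 0.44 with adjusted p = 0.0326 within width bins). The cluster values differed (adjusted p = 1.04e-05). Introns held 42.2% and the space between genes 36.7% of the summits, against 46.4% and 38.7%. The median distance to a transcript start was 7495 bp against 8938 bp (shorter on 18 of 20 chromosomes, adjusted p = 5.37e-04), but without promoters it was 10720.0 against 11114 bp (adjusted p = 0.503). Another GATA6 region lay within 5 kb of 41.6% of the regions without a motif and of 39.2% of the others (log2 odds ratio 0.14, 0.05 to 0.23), and the value was 0.44 within width bins.

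The base composition of the summit window differed slightly. Its median GC share was 46.8% without and 45.3% with a motif (higher on 20 of 20 chromosomes, adjusted p = 3.81e-06), and outside promoters it was 45.8% and 44.8%. The GATA6 matrix favours A or T at most of its core positions. A higher GC share where no match passes is therefore tied in part to the rule, and the sign test cannot separate this. The ratio of observed to expected CpG was 0.196 against 0.183, higher on 15 of 20 chromosomes (adjusted p = 0.0414), and this order turned outside promoters (0.165 against 0.171, adjusted p = 0.351). The genome marks repeats by lower case, and at least 50% of the window was so marked at 582 regions without a motif (13.4%, 12.4 to 14.4) and at 9.93% of the others (9.63 to 10.2). The median of the marked share was 10.9% of the window in both, and it was higher without a motif on 11 and lower on 5 of 20 chromosomes (exact two-sided sign test, p = 0.21).

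The classes were also followed along the score itself, as a description, because the rule used the score. Regions without a motif were divided into 3 equal bins by their best sub-threshold score (from -1.13 to 4.46, to 5.56 and to 6.22), and regions with a motif into 4. Accessible regions made up 27.9% (25.7 to 30.3), 18.1% (16.2 to 20.1) and 16.1% (14.3 to 18.1) of the 3 lower bins, and 11.9%, 5.93%, 3.35% and 2.47% of the 4 upper ones. Early&Constant regions followed the opposite order, from 7.24%, 10.1% and 12.96% to 18.2%, 28.0%, 34.3% and 39.7%. Promoter summits fell from 23.7% in the lowest bin to 14.1% in the highest bin without a motif and 10.2% in the highest bin of all. Median width rose over the 7 bins from 338 to 617 bp. PTFs from d0 lay between 24.9% and 26.8% in the 3 bins without a motif.

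**Figure D3:**
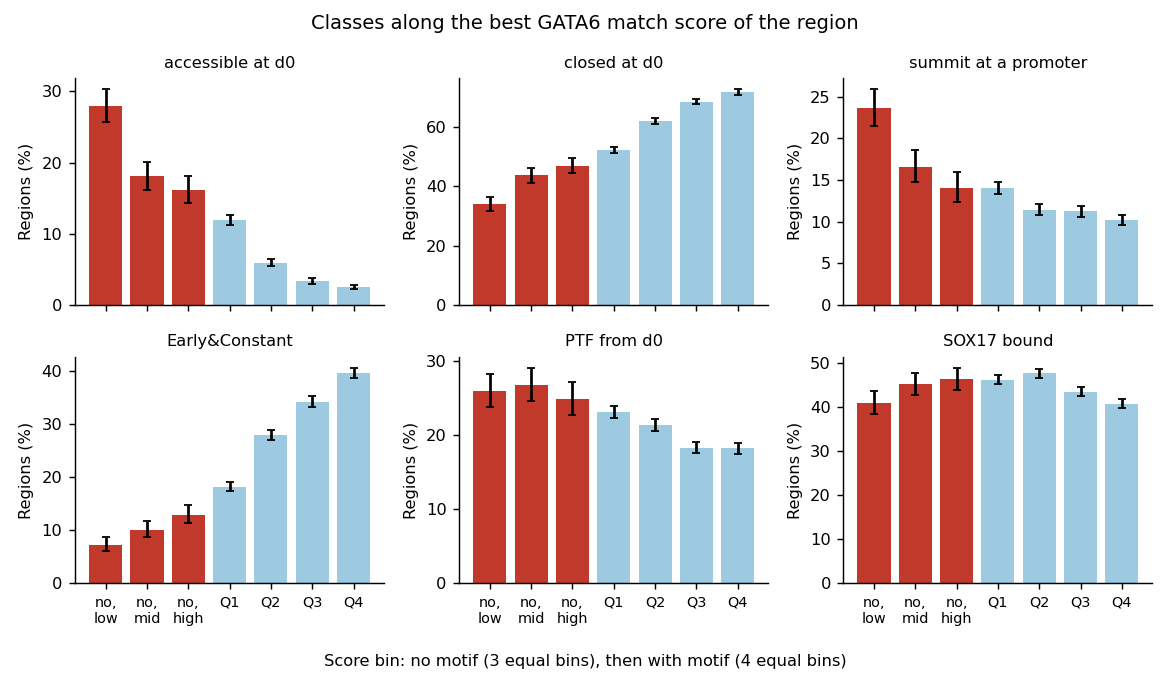
Share of regions (%) in 6 classes along bins of the best GATA6 match score of the region, with 95% Wilson intervals. Dark bars are the 3 equal bins of regions without a motif and light bars the 4 equal bins of regions with one, and the accessible share falls from 27.9% in the lowest to 2.47% in the highest bin.

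Sub-threshold matches lay nearer to the summit than such matches did to the centre of control windows. In the 4346 regions without a motif whose window also held no passing match, the best sub-threshold match lay within 50 bp of the summit in 62.1% (60.6 to 63.5). In control windows of the same regions, 3 kb to either side, free of GATA6 regions and of passing matches, it lay within 50 bp of the centre in 52.6% of 5540 (51.3 to 53.9). Even placement would give 53.4%. The difference of 9.48 percentage points was positive on 20 of 20 chromosomes (exact two-sided sign test, p = 1.91e-06, the smallest that 20 chromosomes allow). It was 6.90 points within 25 bp, and 8.00 points against windows 5 kb away, where it was positive on 18 of 20 chromosomes. The central share was 66.4% in Early&Constant (61.8 to 70.6), 62.1% in Late and 61.0% in Transient regions, and 64.4% in closed (62.1 to 66.5) and 58.8% in accessible regions (55.6 to 62.0). Among 32706 regions with a passing motif in the window, the best match lay within 50 bp of the summit in 71.9%.

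**Figure D4:**
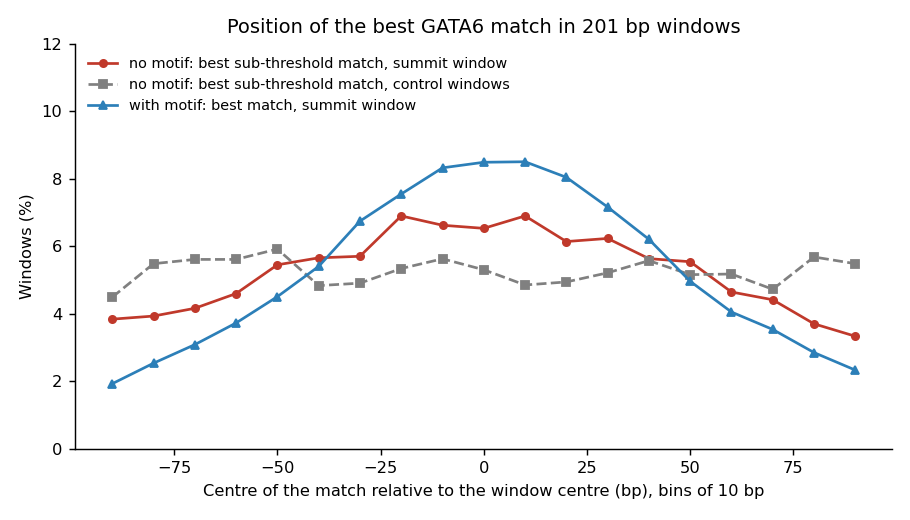
Percent of windows (100 bp to either side of a summit or control position) whose best GATA6 match is centred in each 10 bp bin around the window centre. Sub-threshold matches of regions without a motif (circles) lie nearer to the summit than in control windows (squares), with 62.1% against 52.6% within 50 bp, and passing motifs of the other regions (triangles) lie nearer still, at 71.9%.

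GATA was the most frequent core of these weak matches. The matrix gives its highest weights to G, A, T and A at the 4 core positions, so that this rank is tied to the scoring. The 4 core positions of the best sub-threshold match read GATA in 1674 of 4346 windows (38.5%), against 16.5% of control windows, and GATT in 614 (14.1%), against 6.82%. Matches with a GATA core lay within 50 bp of the summit in 70.3% and those with GATT in 67.6%, while those with GAAA, found in 8.77% of summit and 13.9% of control windows, did so in 54.3%. With 1 base before the core and 2 after it, the most frequent forms were TGATAAA (184 windows), AGATAGC (180), AGATAAT (176), AGATTAA (135) and TGATTAG (118), among 221 forms in all. In 22 windows the match held a base that no deposited motif has at that position, whose weight had to be set.

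Letters were then counted anywhere in the window, on either strand and with overlaps allowed, again as a description. Strings with GATA are tied to the rule, since a strong match removes a region from this set. Control windows here could hold a passing match, so that an AGATAA share below theirs follows in part from the rule. GATA was present in 77.8% of the summit windows without a motif (76.5 to 79.0), in 94.6% of those with one and in 62.1% of control windows. AGATAG, which contains GATA, was present in 23.0% (21.7 to 24.2), 24.2% and 9.55% in the same order, and TGATAG in 14.8%, 13.8% and 7.41%. AGATAA, the favoured form of the motif, was present in 9.72% (8.88 to 10.6) against 59.4% and 11.2%. In closed regions without a motif GATA was present in 88.9% of windows and in accessible ones in 55.3%. No GATA at all was found in 968 windows (22.2%, 21.04 to 23.5), namely in 14.5% of Early&Constant, 19.0% of Late and 27.5% of Transient regions without a motif. Of these, 122 windows also lacked GATT and GATC.

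The motifs of partner factors were scanned in the same windows, with matrices recovered in the same way. This comparison was added after the data had been seen. SOX17 motifs were found in 48.6% of summit windows without a GATA6 motif (47.1 to 50.1), in 42.5% of those with one (42.0 to 43.0) and in 27.6% of control windows. The log2 odds ratio between both kinds of summit was 0.36 (0.27 to 0.45, Fisher's exact test, adjusted p = 4.14e-14, 17 of 20 chromosomes). OCT4:SOX2 motifs were found in 40.5%, 42.0% and 35.6%, where the log2 odds ratio of -0.09 (-0.18 to 0.00) did not pass the test (adjusted p = 0.0577). ESRRB motifs were found in 16.3%, 14.8% and 12.5% (log2 odds ratio 0.17, 0.04 to 0.29, adjusted p = 0.0129, 15 of 20 chromosomes). In whole regions, which are narrower without a GATA6 motif, the shares were lower than in regions with one, at 63.6% against 69.8% for SOX17, 60.4% against 72.7% for OCT4:SOX2 and 29.5% against 37.1% for ESRRB. Within width bins these values turned for SOX17 (log2 odds ratio -0.40 to 0.21) and ESRRB (-0.49 to 0.14), and that for OCT4:SOX2 went from -0.81 to -0.13.

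The shares with a partner motif varied with the recorded binding for SOX17 and for PTFs from d0, but little for ectopic PTFs. Among regions without a GATA6 motif, a SOX17 motif lay in 60.9% of the windows classed as SOX17-bound and in 38.8% of the unbound ones, and an OCT4:SOX2 motif lay in 65.9% of the windows with PTFs from d0, 33.0% of those with ectopic PTFs and 31.2% of those without PTFs, where control windows had 35.6%. ESRRB motifs lay in 21.7%, 14.1% and 14.5% of the windows of the same 3 classes. Regions with a GATA6 motif showed a like order. There a SOX17 motif lay in 54.5% of bound and 32.8% of unbound windows. For the same 3 PTF classes their shares were 62.3%, 37.5% and 36.6% for OCT4:SOX2, and 18.1%, 12.9% and 14.2% for ESRRB. Transient regions without a GATA6 motif held an OCT4:SOX2 motif in 52.8% and an ESRRB motif in 21.7% of windows, and Late ones in 29.5% and 11.3%. With a GATA6 motif these shares were 50.4% and 17.6% in Transient, and 34.4% and 11.8% in Late regions. Some of the strongest partner motifs are printed below, from regions chosen by the highest score in their cluster. They are on the plus strand of mm10, with the motif in capitals. All those printed lay nearer to the summit than the top motifs left out. Left out are SOX17 in Transient, OCT4:SOX2 in Late, and ESRRB in Early&Constant and Late regions. The nearest of these lay at -51 bp (Transient SOX17, before the summit) and the furthest at 336 bp (Early&Constant ESRRB). The Late OCT4:SOX2 motif left out lay in a region without PTFs.

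SOX17 motif, Early&Constant, chr10:88350036-88350074: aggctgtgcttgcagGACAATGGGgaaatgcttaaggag
SOX17 motif, Late, chr1:41658856-41658894: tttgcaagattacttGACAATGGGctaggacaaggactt
OCT4:SOX2 motif, Early&Constant, chrX:151124074-151124118: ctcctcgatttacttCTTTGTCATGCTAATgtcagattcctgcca
OCT4:SOX2 motif, Transient, chr15:80619160-80619204: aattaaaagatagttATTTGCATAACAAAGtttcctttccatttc
ESRRB motif, Transient, chr13:11274069-11274109: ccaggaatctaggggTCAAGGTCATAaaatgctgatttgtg

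Both SOX17 motifs have the same letters and the same score of 12.8, and both regions were classed as SOX17-bound. They lay 17 and 24 bp before the summit. The Early&Constant one lies in an intron 6924 bp from a start of Dram1 and carried PTFs from d0. The best GATA6 match in its window scored -0.06, and elsewhere in the region a match reached 4.03. At the Late one, GATA6 binding was higher after Oct4 knockdown. The strongest OCT4:SOX2 motif, with a score of 21.6, lay 33 bp before the summit of a Transient region in an intron near Grap2, accessible at d0, with PTFs from d0 and without SOX17. The Early&Constant OCT4:SOX2 motif scored 19.4, lay 19 bp after the summit and 27534 bp from Tsr2. The strongest ESRRB motif, with a score of 18.5, lay 38 bp before the summit of a Transient region with PTFs from d0 and SOX17, and GATA6 binding there was lower after Oct4 knockdown. The widest region without a GATA6 motif, chr7:139955584-139957207 (1624 bp), was Transient, in the poised enhancer state, 12390.0 bp from the pluripotency gene Utf1, and also had lower binding after knockdown.

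Short letter strings known for other factors were searched on both strands, each a description of the window and not a binding site. Regions without a motif had more promoter summits and a higher GC share, and the strings were not compared outside promoters or at a like GC share. The GC box of SP and KLF factors (GGGCGG) was present in 10.99% of summit windows without a GATA6 motif (10.1 to 11.9), 5.93% of those with one and 3.01% of control windows, and in 29.7% of accessible against 2.99% of closed regions without a motif. The ETS string (CCGGAAG) followed the same pattern at 2.28%, 1.18% and 0.862%, with 5.88% of accessible regions. The forkhead string (TGTTTAC) was present in 7.65% (6.90 to 8.48), 5.99% and 2.78%, and here closed regions were higher, at 11.5% against 3.22% of accessible ones. AP-1 (TGACTCA) was present in 8.60%, 7.73% and 3.31%, and TEAD (ACATTCC) in 8.96%, 7.54% and 2.60%. NFY (CCAAT) was at 23.4%, 22.0% and 25.02%. Over all 42403 summit windows the GC box was present in 6.45% and the forkhead string in 6.16%.

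**Figure D5:**
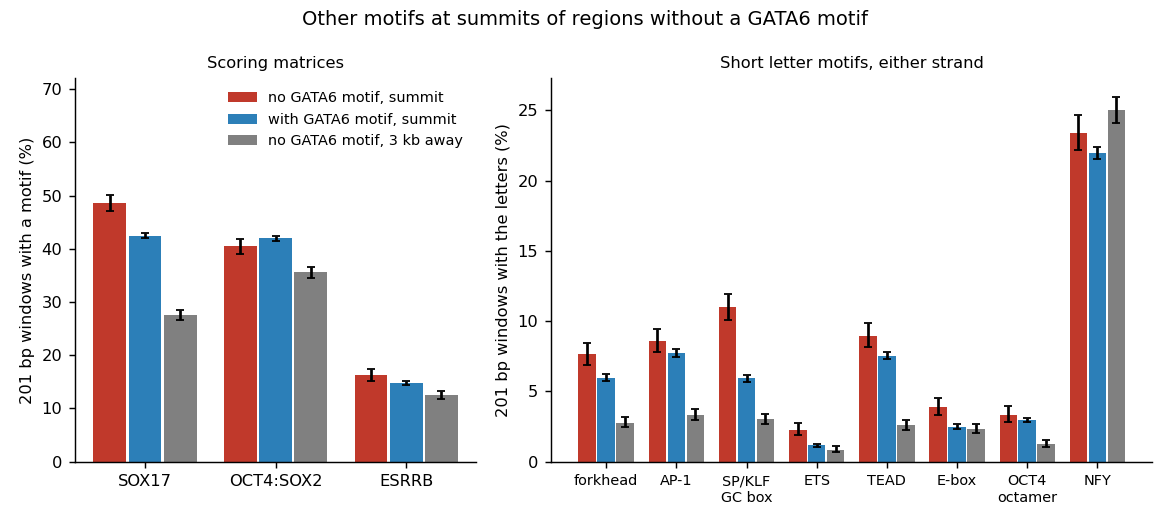
Percent of windows (100 bp to either side of the centre) that hold a motif of a scoring matrix (left) or a short letter string on either strand (right), at summits of regions without a GATA6 motif, summits of regions with one, and windows 3 kb from the former, with 95% Wilson intervals. SOX17 motifs stand at 48.6%, 42.5% and 27.6%, and the GC box at 10.99%, 5.93% and 3.01%.

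None of the 4 scored motifs was present in 606 regions (13.9% of those without a GATA6 motif, 12.9 to 15.0). Of the 38052 regions with a GATA6 motif, 8.34% lacked the other 3. The median width was 298 bp in the former and 364 bp in the latter, and the part of width in these shares was not tested. Regions with none of the 4 made up 17.9% of Late, 11.1% of Transient and 8.41% of Early&Constant regions without a GATA6 motif, 28.0% of those at promoters (24.9 to 31.2) and 9.37% of those bound by SOX17.

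Regions without a motif were also looked up near 29 genes of the PrE programme and 29 genes of pluripotency, each with at least 1 GATA6 region within 20 kb of a transcript start. Within that distance 16 such regions made up 7.96% of all regions near PrE genes (4.96 to 12.5), and 20 made up 15.4% of those near pluripotency genes (10.2 to 22.6), where the table as a whole has 10.3%. They occurred near 13 genes of each list. These counts are small, were not tested, and neighbouring genes may share a region.

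Near PrE genes, the nearest region without a motif was Late for 9 of the 13 genes, closed at d0 for 7 and SOX17-bound for 10. For the nearest region with a motif of the same genes these counts were 5, 3 and 10. Over all regions without a motif the shares were 46.0% Late, 41.5% closed and 44.2% SOX17-bound. One was at the promoter of Gata6 itself, 55 bp from a start of the gene, Late, moderate at d0 and SOX17-bound, with a best match of 2.87. At Lama1, which encodes a laminin chain of the basement membrane, the region chr17:67696933-67697293 lay 126 bp from a start, was Early&Constant, accessible, with ectopic PTFs and SOX17, and reached only 2.35. At Srgn, which encodes the proteoglycan serglycin, a Late, closed, SOX17-bound region with ectopic PTFs lay 96 bp from a start. Sox7, an endoderm transcription factor gene, had a Late, closed, SOX17-bound region with ectopic PTFs 4936 bp away, whose best match of 5.87 lay close to the threshold.

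Near pluripotency genes, the nearest such region was Transient for 12 of the 13 genes, accessible at d0 for 10, closed for 0, and carried PTFs from d0 for 11. For the nearest region with a motif of the same 13 genes these counts were 4, 4, 2 and 8, and 8 of them were Early&Constant. Over all regions without a motif the shares were 43.9% Transient, 20.7% accessible, 41.5% closed and 25.9% with PTFs from d0. Among promoters, it lay 169 bp from a start of Klf5, 190.0 bp from Tbx3, 45 bp from Nr5a2 and 14 bp from Sall4, which all encode transcription factors of ES cells, and 172 bp from Dppa5a, a gene transcribed in ES cells. The Sall4 region was the only Late one of the 13, and was accessible with PTFs from d0 and SOX17. Further than 1 kb from a start, the region nearest to Tfcp2l1, a pluripotency transcription factor gene, lay at 1333 bp. That of Tet1, which encodes an enzyme that oxidises methylated cytosine, lay at 2010.0 bp, that of Esrrb at 5422 bp and that of Sox2 at 18203 bp. These regions were all Transient, accessible and with PTFs from d0, and those of Tet1 and Esrrb were in the promoter state. GATA6 binding was classed as lower after Oct4 knockdown at the region near Utf1 and as unchanged at the other 12.

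The summits at 2 of these promoters, both accessible at d0, are printed on the plus strand of mm10. The best sub-threshold match of each does not lie wholly within the 101 bp shown, so that no letters are in capitals.

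Lama1, chr17:67697083-67697183: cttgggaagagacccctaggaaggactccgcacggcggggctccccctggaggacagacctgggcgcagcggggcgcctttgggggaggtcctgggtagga
Klf5, chr14:99298472-99298572: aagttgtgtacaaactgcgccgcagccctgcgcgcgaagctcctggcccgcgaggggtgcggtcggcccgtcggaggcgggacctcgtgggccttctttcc

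The summit windows of Lama1 and Klf5 hold no GATA on either strand, and their GC shares were 73.1% and 69.7%. The Klf5 region was accessible and carried ectopic PTFs and SOX17. Its best match scored 4.19 in the window and 5.81 in the whole region, close to the threshold.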

How the data were processed

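Per the study's methods, reads were aligned to mm10 with Bowtie2. GATA6 binding regions rest on peaks that MACS2 called after replicates were merged, and only peaks also called in every replicate were kept. Class columns are the authors' clusterings and peak overlaps, and the Oct4 knockdown class is their DESeq2 call. The deposited motif score is a FIMO log-odds score of a JASPAR matrix, empty where no match passed. The table has 105 columns. Of these, 59 signal columns match no library of the series and were not used, nor were 12 columns that group motif values.

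The GATA6 matrix (13 positions) was recovered by least squares from the deposited scores (largest residual 5.17e-05). Matches that overlap a region by at least 2 bp were counted, which gave the deposited best score in 38052 of 38052 regions with a motif. A single base weight, never seen in a deposited motif, was set to the highest value at which no region listed without a motif passes, so that the agreement for those regions is partly by construction. Sequence came from GRCm38.p6 (RefSeq) and annotation from GENCODE M21. A region's width counts both end positions. Windows reached 100 bp to either side of summits.

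The members and lists were chosen with earlier results of these data known. Fisher's exact tests (40 tables) and sign tests over chromosomes were two-sided with Benjamini-Hochberg adjustment at 0.05 within each family. P-values under 1e-300 were set to 1e-300. Depth is unknown, and neighbouring regions are not independent. Named regions were, per cluster, those with the highest and lowest sub-threshold window score, the widest, and those with the highest SOX17, OCT4:SOX2 and ESRRB score (ties by chromosome and start), and the region nearest to each listed gene within 20 kb. Statistics were tested on simulated data. The work used scipy 1.17.1, statsmodels 0.14.6, numpy 2.4.6 and pandas 2.3.3 under Python 3.11.15, and plots were drawn with matplotlib 3.10.9. A few regions that this rule names are not reported here.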

Additional observations from a re-analysis of the deposited data

Results flagged for a closer look

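For 5 classes the odds ratio of regions without against with a GATA6 motif differed between Early&Constant, Late and Transient regions by Woolf's test of the difference, with 2 degrees of freedom. The chi-square values were 11.7 for accessibility at d0, 19.5 for PTFs from d0, 11.3 for ectopic PTFs, 56.2 for SOX17 binding and 24.8 for promoter summits. Within 10 bins of region width they were 2.93 (adjusted p = 0.29) and 0.129 (adjusted p = 0.938) for the first and the second, so that these differences were not detected there. They were 25.5, 44.2 and 20.5 for the other 3, which still passed (largest adjusted p = 5.78e-05).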

How the results depend on the processing

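No paired analysis was possible because no column used carries a replicate. Of 216 values under alternatives, 159 kept direction and call, 17 lost the call, 3 gained it and 37 changed sign. Joint bins of width and GC share, and the fit outside promoters, were chosen after seeing the data. All values below are log2 odds ratios unless a unit is given, and their cause was not tested.

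Within width bins, signs turned for ectopic PTFs (0.32, and 0.13 in Early&Constant), SOX17 binding (0.76), the primed enhancer (0.37) and constitutive heterochromatin states (-0.43), lower binding after knockdown (0.06), SOX17 (0.21) and ESRRB motifs (0.14). Higher binding after knockdown lost its call (-0.09), and Early&Constant promoters (0.44) and Late SOX17 binding (0.77) gained one. In the interquartile range of widths the turned values were SOX17 binding 0.44, primed enhancers 0.34, constitutive heterochromatin -0.29, SOX17 motifs 0.03 and ESRRB motifs 0.11, and calls were lost for ectopic PTFs (-0.12), poised enhancers (0.15), lower (-0.20) and higher binding (-0.20) and intergenic summits (-0.04). With the motif lacking in the summit window (9692 regions) the turned values were 0.35, 0.27, -0.10, 0.09 and 0.02 in the same order, and calls were lost for lower binding (-0.07) and intergenic summits (-0.02). Away from the threshold, regions without PTFs (-0.12) and intergenic summits (-0.11) lost the call and primed enhancers gained one (-0.19).

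Within clusters, ectopic PTFs (0.21), SOX17 binding (0.42) and primed enhancers (0.06) turned, and constitutive heterochromatin (0.04) and intergenic summits (-0.09) lost the call. Within bins of width and GC share, ectopic PTFs (0.39), SOX17 binding (0.84), poised (-0.02) and primed enhancers (0.48), constitutive heterochromatin (-0.25), lower (0.08) and higher binding (0.10), and SOX17 (0.40), OCT4:SOX2 (0.15) and ESRRB motifs (0.14) turned, and intergenic summits lost the call (-0.02). Outside promoters, SOX17 binding (0.00), primed enhancers (0.08) and the CpG ratio (difference -0.0064) turned, and distance to a start lost the call (-393.5 bp). In Early&Constant regions, the CpG ratio (-0.015) and distance (410.5 bp) turned and GC share lost the call (1.00 point), as did the CpG ratio (0) and distance (-1456 bp) in Transient regions. Without GC share, the promoter term of the joint fit was 0.09. The 3 replicates of a group enter no value, so none could be left out.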

Other observations

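Combinations of the 4 classes (GATA6 cluster, PTFs, SOX17 and accessibility at d0) give a finer picture of where a GATA6 motif was lacking. The 2 combinations with the most such regions, both Late, closed and without PTFs, lacked a motif about as often as the whole table (10.3%), in 577 of 5137 regions with SOX17 (11.2%) and in 563 of 5401 without it (10.4%). The share without a motif was 48.7% (42.2 to 55.2) of 224 Late regions that were accessible and without PTFs or SOX17, and 43.2% (35.2 to 51.5) of 139 such regions with SOX17. It was 1.86% (1.33 to 2.61) of 1770 Early&Constant regions that were closed and without either. Among Transient regions with PTFs from d0 and without SOX17, it was 29.7% (26.8 to 32.7) of the accessible, 13.7% (12.4 to 15.1) of the moderate and 4.49% (3.10 to 6.45) of the closed ones.

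All strings of 6 letters were also counted in summit and control windows after the data had been seen, with no test. CCCGCC, part of a GC box, was present in 11.1% of summit windows without a GATA6 motif and 2.93% of control windows, and in 5.70% of summit windows with a motif. These shares were not compared outside promoters or at a like GC share. GATAGC was present in 17.7% against 5.68%, and in 13.1% of summit windows with a motif. It contains GATA, so that its shares are tied to the rule. ACAATG, part of the SOX17 motif, was present in 25.8% against 10.5%, and in 22.7% of summit windows with a motif.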
